A study of Mus musculus with 12 samples.

Results

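Foxp1, Foxp2, Foxp4, Foxo1, Foxo3 and Foxo4 are the FOXP and FOXO transcription factor genes that were followed here in hernia-associated fibroblasts (HAFs), the fibroblasts that accumulate in the lower abdominal muscle (LAM) of Aromhum mice and that are labelled as skeletal muscle fibroblasts. They were chosen by name, with earlier results of these data known, as were the gene lists, and all 6 were present among the 13233 genes of the deposited table. RNA-Seq was performed on 12 samples of primary HAFs in 4 groups of 3, each treated for 48 h. The groups were vehicle (ethanol and DMSO), 10 nM estradiol (E2), 10 nM E2 with 100 nM fulvestrant, and 100 nM fulvestrant without E2. Fulvestrant is an estrogen receptor antagonist that also lowers the amount of receptor protein. Every group came from the same genotype, FVB/N-derived mice that carry a human aromatase transgene with the gene's own promoters, so no group lacked the transgene. The cells had been separated by pre-plating, passaged once and serum-starved before treatment. The labels give no age for the mice and do not say whether replicates came from separate animals or cultures, so the p-values measure the spread between these samples, which may be technical.

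FOXP and FOXO proteins share the forkhead domain, a winged helix that binds DNA. FOXP proteins act mostly as repressors, pair with each other through a leucine zipper and recruit corepressors such as CtBP and the NuRD complex. FOXO proteins are held out of the nucleus when AKT or SGK phosphorylates them downstream of the insulin and PI3K pathway, and when that signal falls they switch on genes of cell cycle arrest, antioxidant defence, autophagy and fuel use. Their activity is therefore set largely after the mRNA is made, and mRNA is what was measured here.

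Across the 4 groups, 1 of the 6 genes was called as changed. With both fulvestrant groups set against both groups without it, 7.81% of all genes were called lower and 7.71% higher. The count of 1 in 6 is therefore no result about the family. Foxp2, by far the least abundant, was lower in every sample with fulvestrant than in every sample without it, whether or not E2 was present. None of the other 5 was called in any comparison, and the 95% intervals of their changes between groups lay within -0.30 and 0.37 on the log2 scale. E2 without fulvestrant changed none of the 6 past the threshold.

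The forkhead domain is close enough between family members to raise the question whether reads of 1 gene could have been counted for another, above all for Foxp2, which had few reads beside the abundant Foxp1. The longest run of identical bases between any Foxp1 and any Foxp2 transcript was 35 bases, and between Foxp2 and Foxp4 it was 20 bases, against a read length of 150 bases. For the FOXO genes, the coding sequences of GENCODE M21 (mm10) are shown for a window of 90 bases in which they are most alike, because it bears on that question. Capitals mark bases that differ from Foxo1. The windows cross an exon junction and span chr3:52269372-52345077 on the plus strand for Foxo1, chr10:42197863-42274866 on the minus strand for Foxo3 and chrX:101255223-101258215 on the plus strand for Foxo4.
Foxo1: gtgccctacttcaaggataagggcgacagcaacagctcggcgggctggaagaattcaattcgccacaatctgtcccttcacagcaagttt
Foxo3: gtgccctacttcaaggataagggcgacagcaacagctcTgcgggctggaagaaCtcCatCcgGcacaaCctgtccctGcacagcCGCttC
Foxo4: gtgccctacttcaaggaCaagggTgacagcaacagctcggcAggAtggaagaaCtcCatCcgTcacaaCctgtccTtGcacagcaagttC
Here 79 of 90 bases of Foxo3 and 78 of 90 bases of Foxo4 were those of Foxo1. The longest identical run among the FOXO genes was 38 bases, between Foxo1 and Foxo3. No run shared by any pair of the 6 genes reached the read length. Exon overlap with other genes was small. On the same strand, 3.2% of Foxp1 exon bases lay in exons of Gm20696 or Gm49348, and no exon base of the other 5 genes was shared. On the opposite strand, 7.8% of Foxo1 exon bases lay over Gm20402, and the reads had been counted by strand.

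The depth was 18827792 to 44040507 reads on listed genes per sample, and every gene of the table had at least 10 reads in each sample. Values are normalized counts, which are read counts divided by 1 factor per sample. Of the marker genes looked up, all 10 fibroblast markers were present (Pdgfra, Pdgfrb, Col1a1 and others), whereas 0 of 7 myogenic, 0 of 4 adipocyte and 0 of 5 epithelial markers were in the table. For endothelial cells 1 of 6 was present (Tek), for leukocytes 1 of 8 (Cd68) and for pericytes or smooth muscle 3 of 5 (Cspg4, Mcam and Myh11). Of the Schwann cell markers S100b was present and Sox10 was not. The receptor gene Esr1 and the classical estrogen target Pgr checked the treatments. Pgr rose with E2, by 1.88 on the log2 scale (adjusted p = 0.0343), and fell by 3.28 when fulvestrant was added to E2 (adjusted p = 4.69e-05, limma). Esr1 fell by 2.26 in that comparison (adjusted p = 8.23e-05). Samples that carry replicate number 1 stood apart from the others in every group, so each fit included the replicate number as a block. Without the block the comparisons called far fewer genes.

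Levels were first compared between the genes per kb of merged exon length. Foxo3, linked to stress resistance and apoptosis, was highest, with a mean normalized count of 661.6 per kb over the 12 samples (lowest 600.9, highest 719.6). Foxp4 followed with 471.6 per kb and Foxp1 with 377.8 per kb. Foxo4 had 249.7 per kb and Foxo1, a regulator of glucose and lipid metabolism, 185.7 per kb. Foxp2, known best for its part in the circuits of speech and vocal learning, had 2.26 per kb (lowest 0.673, highest 5.06). Each neighbour in this order was above the next in 12 of 12 samples. The within-sample ratio of Foxo1 to Foxp2 ranged from 29.8 to 310 per kb of merged exons and from 12.3 to 128 per kb of the longest transcript, by which Foxp2 had 5.47 per kb. With the longest transcript in place of merged exons, Foxo3 (731.5 per kb) and Foxp1 (723.8 per kb) could not be ordered, since Foxo3 was the higher in 6 of 12 samples, and Foxp4 came next with 580.9. Among all listed genes by normalized count, without length, Foxp1 lay at the percentile 91.6, Foxo3 at 91.1, Foxp4 at 77.3, Foxo1 at 68.4, Foxo4 at 52.3 and Foxp2 at 4.3.

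**Figure D1:**
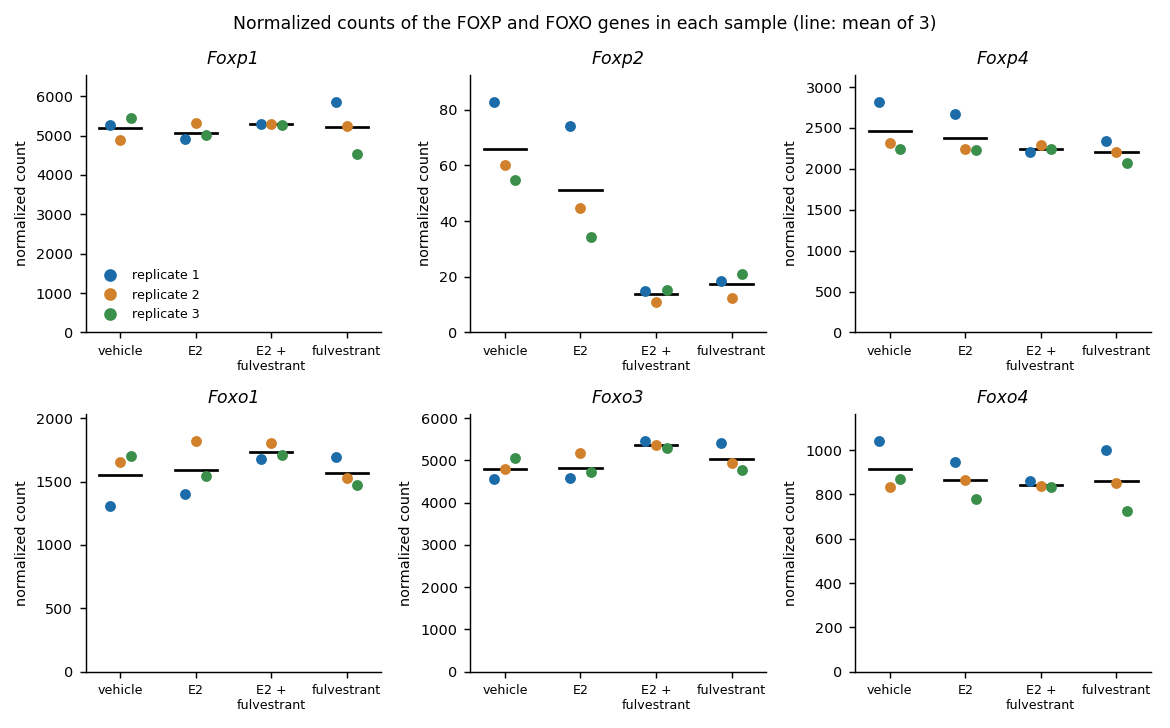
Normalized counts (vertical axes, each starting at 0) of the 6 genes in each of the 12 samples, with points coloured by replicate number and a line at the mean of 3 in each group. Foxp2 goes from between 34.4 and 82.7 without fulvestrant to between 11 and 21.1 with it, whereas samples with and without fulvestrant overlap for the other 5 genes.

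Foxp2 lies on chromosome 6 (14901349 to 15441977, plus strand, mm10). With vehicle its normalized counts were 82.7, 60.0 and 54.9 in replicates 1, 2 and 3. With E2 they were 74.0, 44.6 and 34.4. With E2 and fulvestrant they were 14.8, 11 and 15.3. Each of these 3 was below every value of the preceding groups. With fulvestrant without E2 the counts were 18.5, 12.4 and 21.1, which overlapped those with E2 and fulvestrant and no others. All 6 samples with fulvestrant were thus below all 6 without it, a separation in that direction that was found for 2.16% of all genes. No member was separated upward, against 2.14% of all genes.

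These values rest on few reads. Foxp2 had 69 to 82 reads per sample with vehicle, 30 to 75 with E2, 12 to 17 with E2 and fulvestrant and 13 to 17 with fulvestrant, near the minimum of 10 reads that every gene of the table reached. The sample with the fewest, E2 and fulvestrant replicate 2 with 12 reads, has an exact 95% Poisson interval of 6.20 to 21.0 reads, and the one with the fewest among samples without fulvestrant, E2 replicate 2 with 30 reads, an interval of 20.2 to 42.8 reads. Such intervals cover counting error only. In these bulk samples, fewer cells that express a gene and less of its RNA per cell cannot be told apart.

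Fulvestrant added to E2 was the first comparison. The mean Foxp2 normalized count was 51.0 ± 20.5 with E2 and 13.7 ± 2.34 with E2 and fulvestrant (SD, n = 3 each). Foxp2 fell by 1.77 on the log2(normalized count + 1) scale (SE 0.265, 95% interval -2.35 to -1.18), with an adjusted p of 0.0019 by limma with Benjamini-Hochberg adjustment over all genes. Calls required both an adjusted p under 0.05 and a fold change over 1.2. The log2 differences within replicates 1, 2 and 3 were -2.25, -1.93 and -1.12, negative in 3 of 3. Of the 6 genes 1 was called lower and 0 higher, beside 4.62% and 4.97% of all genes (1270 genes in both directions, and 69 without the replicate block). Foxp2 was called in the 12-sample fit without the block as well, at an adjusted p of 0.0484. With only the 6 samples of these groups and no block, Foxp2 was not called (adjusted p = 0.27, limma). It lost its call without replicate 2 (-1.68, adjusted p = 0.0622), and without replicate 1 the change was -1.52 (adjusted p = 0.0154).

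Fulvestrant without E2 gave a change of like size between the groups that the first comparison did not contrast. Both comparisons came from the same fit of all 12 samples and share its estimate of the spread. Their p-values are therefore not independent. The mean Foxp2 normalized count was 65.9 ± 14.8 with vehicle and 17.3 ± 4.45 with fulvestrant (SD, n = 3 each). It fell by 1.88 on the log2 scale (SE 0.265, 95% interval -2.46 to -1.29, adjusted p = 0.00114, limma), and the differences within replicates were -2.10, -2.19 and -1.34. Again 1 of the 6 genes was called lower and 0 higher, beside 5.69% and 6.76% of all genes (1648 genes, and 72 without the block). Without replicate 1 the change of Foxp2 was -1.76 (adjusted p = 0.00511). Without the block Foxp2 was called in the 12-sample fit (adjusted p = 0.0361, limma). It was not called with only the 6 samples of these groups and no block (adjusted p = 0.325, limma).

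With both fulvestrant groups set against both groups without it, the Foxp2 change was -1.82 on the log2 scale (SE 0.187, 95% interval -2.23 to -1.41, adjusted p = 5.93e-05). The mean normalized count was 58.4 over the 6 samples without fulvestrant and 15.5 over the 6 with it, a ratio of 3.77. Only 8 other genes of the table had a lower pooled log2 change, since Foxp2 stood at place 9 of 13233. For this pooled effect 7.81% of all genes were called lower and 7.71% higher (2054 genes, and 310 without the block). As the scale adds 1 to each count, it understates the change of a gene as low as Foxp2.

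**Figure D2:**
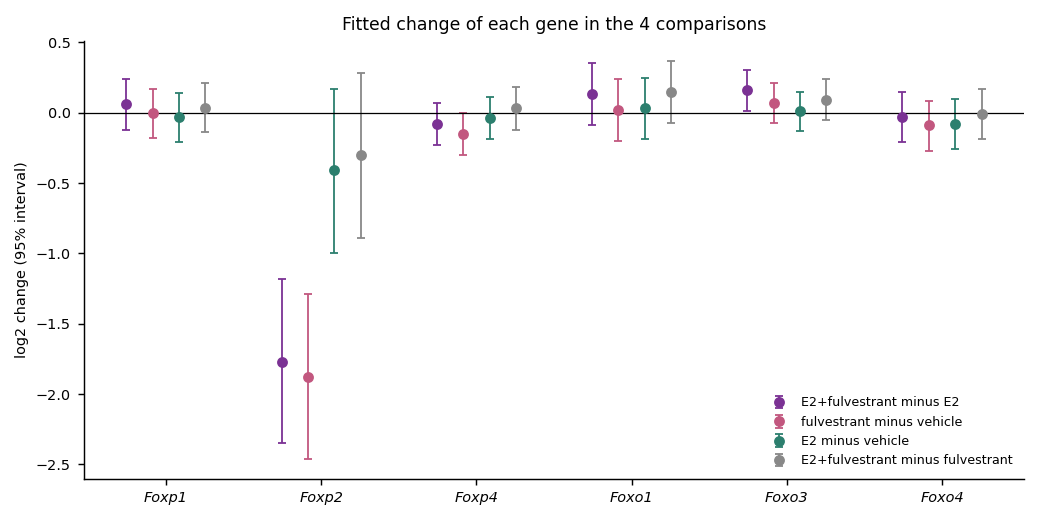
Fitted log2 change (vertical axis) of each gene with its 95% interval in the 4 comparisons between groups. Foxp2 lies at -1.77 and -1.88 in the fulvestrant comparisons with and without E2, and all other points lie between -0.41 and 0.16.

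Some other measures moved with fulvestrant beside Foxp2. The normalized count of the Schwann cell marker S100b was 23.4 to 100.6 without fulvestrant and 16.5 to 56.5 with it, and these ranges overlapped. The summed normalized count of the 10 fibroblast markers, which include Esr1, was 487400 to 623200 without and 391500 to 459600 with it. Their part in the result for Foxp2 was not tested. Replicate 1 had the highest Foxp2 value with vehicle and with E2, by 0.52 and 0.90 on the log2 scale over the mean of replicates 2 and 3. In the fulvestrant groups replicate 1 was above that mean by 0.17 and 0.18, and replicate 3 had the highest value.

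Foxp1, a repressor with roles in heart, lung and lymphocyte development, lies on chromosome 6 (98925338 to 99522721, minus strand). Its normalized counts without fulvestrant were 5262, 4890 and 5455 with vehicle and 4913, 5308 and 5014 with E2. With fulvestrant they were 5290, 5307 and 5276 beside E2 and 5850, 5238 and 4534 without E2. The groups overlapped, and the widest spread was in the fulvestrant group, whose replicate 1 was the highest and replicate 3 the lowest of all 12. The pooled change was 0.03 (95% interval -0.10 to 0.15, adjusted p = 0.758), and the ends of that interval correspond to 1.11-fold higher and 1.07-fold lower.

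Foxp4, which can pair with FOXP1 and FOXP2, lies on chromosome 17 (47867133 to 47924645, minus strand). The counts were 2816, 2311 and 2248 with vehicle and 2670, 2246 and 2234 with E2. They were 2211, 2287 and 2239 with E2 and fulvestrant and 2340, 2205 and 2071 with fulvestrant. Replicate 1 was highest in every group but that with E2 and fulvestrant, and the groups overlapped. The pooled change was -0.12 (95% interval -0.22 to -0.01, unadjusted p = 0.0337, adjusted p = 0.0952), and Foxp4 was not called. Without replicate 1 the pooled change was -0.04 (adjusted p = 0.499).

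Foxo1 lies on chromosome 3 (52268336 to 52353221, plus strand). Its counts were 1307, 1656 and 1703 with vehicle and 1403, 1816 and 1542 with E2. With E2 and fulvestrant they were 1679, 1807 and 1710, and with fulvestrant 1696, 1526 and 1471. Within replicate 1 both fulvestrant samples were above both samples without it, by 0.26 with E2 and 0.38 without E2 on the log2 scale. Within replicates 2 and 3 the differences were -0.01 and 0.15 with E2 and -0.12 and -0.21 without E2. The pooled change of Foxo1 was 0.07 (95% interval -0.08 to 0.23, adjusted p = 0.473), and without replicate 1 it was -0.05 (adjusted p = 0.54).

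Foxo3 lies on chromosome 10 (42181841 to 42276755, minus strand). The normalized counts of Foxo3 were 4549, 4796 and 5046 with vehicle and 4587, 5168 and 4735 with E2. They were 5448, 5368 and 5298 with E2 and fulvestrant and 5402, 4932 and 4779 with fulvestrant. The 3 samples with E2 and fulvestrant were above all 6 without fulvestrant, and those with fulvestrant overlapped them. Foxo3 was higher by 0.16 with fulvestrant added to E2 (unadjusted p = 0.0362, adjusted p = 0.15, positive in 3 of 3 replicates) and by 0.11 in the pooled comparison (95% interval 0.01 to 0.21, unadjusted p = 0.0325, adjusted p = 0.0927). Neither passed the test. With replicates left out the pooled value was 0.04 to 0.15 (adjusted p 0.0496 to 0.47), the lowest value without replicate 1 and the lowest adjusted p without vehicle replicate 3, and Foxo3 was called in none of these fits.

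Foxo4, the X-linked member, lies at 101254528 to 101260873 on the plus strand. With vehicle the counts were 1039, 831.7 and 869.1, and with E2 945.9, 866.5 and 780.9. With E2 and fulvestrant they were 858.8, 838.6 and 834.6, and with fulvestrant 1001, 851.4 and 723.3. Replicate 1 was highest in each group, and the groups overlapped. The pooled change was -0.06 (95% interval -0.19 to 0.06, adjusted p = 0.461).

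In the fulvestrant group, replicate 3 had the lowest value of Foxp1, Foxp4, Foxo1, Foxo3 and Foxo4 and the highest of Foxp2, and it was also the library with the fewest reads of the 12. Without it, the change with fulvestrant against vehicle was 0.10 for Foxp1 (-0.00 with all samples), -0.14 for Foxp4 (-0.15), 0.07 for Foxo1 (0.02), 0.11 for Foxo3 (0.07), -0.01 for Foxo4 (-0.09) and -2.12 for Foxp2 (-1.88). The part of that library's depth in these values was not tested.

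E2 was then compared with vehicle, a comparison that shares its samples with those already given. Of the 6 genes 0 were called by limma, beside 0.0756% of all genes in either direction (10 genes, and 1 without the block), with 1340 genes at an unadjusted p under 0.05. The Foxp2 value was -0.41 (95% interval -1.0 to 0.17, adjusted p = 0.61), with differences of -0.16, -0.42 and -0.66 within replicates 1, 2 and 3. Its point estimate was thus on the same side of 0 as with fulvestrant, whereas Pgr rose with E2 and Esr1 was higher by 0.72 (adjusted p = 0.388). The changes of the other 5 genes lay between -0.08 (Foxo4) and 0.03 (Foxo1), and none of their intervals reached beyond -0.26 or 0.25.

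E2 in the presence of fulvestrant was the remaining pair of groups. None of the 6 genes was called by limma, nor was any gene of the table (0.0%, with 255 at an unadjusted p under 0.05). Foxp2 gave -0.30 (95% interval -0.89 to 0.28, adjusted p = 1), negative in 3 of 3 replicates. The largest value among the others was that of Foxo1, 0.15 (95% interval -0.07 to 0.37). The interaction, which asks whether the fulvestrant change differs with and without E2, was 0.11 for Foxp2 (95% interval -0.71 to 0.94, adjusted p = 0.984). For the other 5 genes it lay between 0.06 and 0.12, and no gene of the table was called (0.0%, with 501 at an unadjusted p under 0.05).

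**Figure D3:**
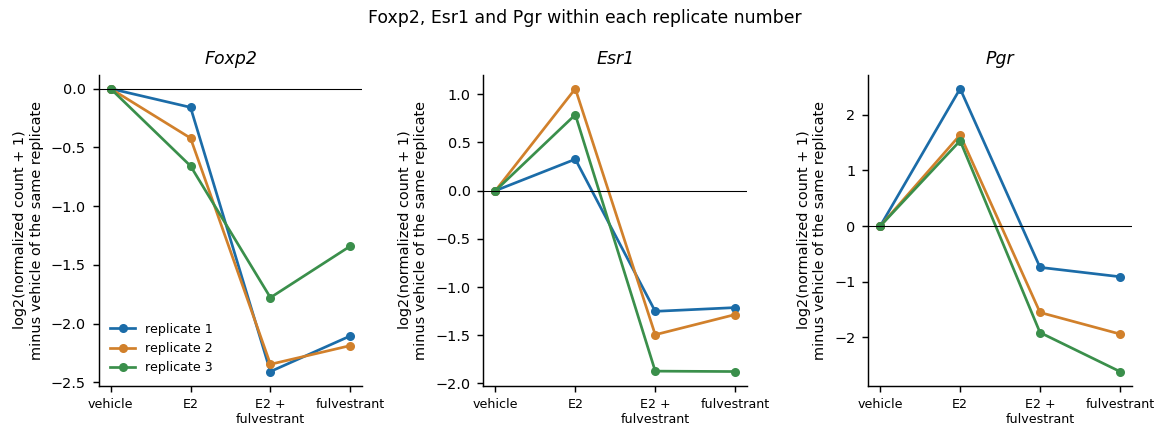
log2(normalized count + 1) of Foxp2, Esr1 and Pgr in each group minus the vehicle value of the same replicate number (vertical axes differ), with 1 line per replicate. Esr1 and Pgr are above vehicle with E2 in 3 of 3 replicates and Foxp2 is below it in 3 of 3, while all 3 genes are below vehicle in both fulvestrant groups.

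The genes whose pattern was most like each member were found by the Pearson correlation over the 12 samples after the mean of each replicate number was subtracted. These values describe likeness only, and the samples share their treatments. Among the closest to Foxp2 were Gas2, a cytoskeletal protein of growth-arrested cells (r = 0.981), and Tox, an HMG-box nuclear factor (r = 0.978). The mean normalized count of Gas2 was 3386 with vehicle, 2879 with E2, 1171 with E2 and fulvestrant and 1246 with fulvestrant. That of Tox was 836.8, 593.7, 248.8 and 243.1 in the same groups. As for Foxp2, both means without fulvestrant were above both means with it. Foxp2 correlated less closely with Esr1 (r = 0.82) and Pgr (r = 0.726). For Foxo1 the closest gene was Pik3ca, the catalytic PI3K subunit upstream of AKT (r = 0.953), followed by Cachd1 (0.942) and Tfdp2 (0.938). Foxo3 was closest to Nin (0.965), Sash1 (0.959) and Ubtd2 (0.957), and Foxo4 to Phf2 (0.918), Zfp120 (0.903) and Virma (0.899). Foxp1 was closest to 1700020I14Rik (0.96), Chd2 (0.959) and Cdc73 (0.945), and Foxp4 to Megf9 (0.972), Kif21b (0.955) and Tdrd7 (0.955). Between members, Foxo1 and Foxo3 had the highest correlation (r = 0.91). Foxp2 was closest to Foxp4 (r = 0.70) and most opposed to Foxo3 (r = -0.72).

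Another 13 forkhead genes were listed, which set the family in context, while Foxo6 and Foxp3 were not in the table. Foxp2 was the lowest of all 19 per kb of merged exons, and the next lowest, Foxs1, had 17.7 per kb. In the pooled comparison 1 of the other 13 was called higher and 0 lower (7.7%, beside 7.71% higher and 7.81% lower over all genes), and 0 were called without the block. With fulvestrant against vehicle Foxn2 rose by 0.27 (adjusted p = 0.0251) and Foxn3 fell by 0.28 (adjusted p = 0.0221). Both changes were smaller than that of Foxp2.

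**Figure D4:**
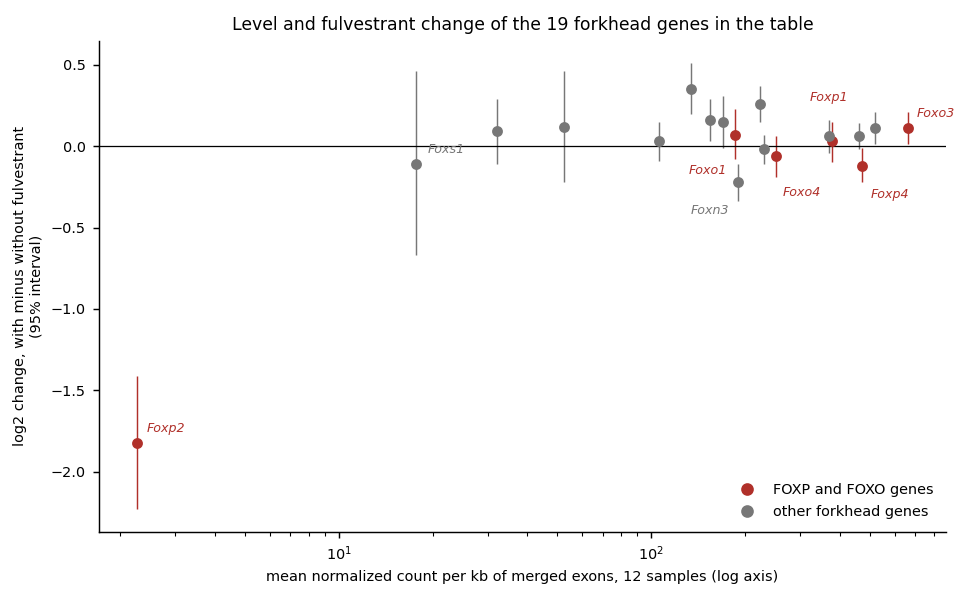
Pooled log2 change with fulvestrant and its 95% interval (vertical axis) against the mean normalized count per kb of merged exons (horizontal log axis) for the 6 FOXP and FOXO genes and the 13 other forkhead genes. Foxp2 stands apart at the lower left, at 2.26 per kb and -1.82, while the other 5 FOXP and FOXO genes lie between -0.12 and 0.11.

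The genes around the FOXO factors were described by lists, some of which share genes. FOXO target genes were 50 genes reported to be bound or regulated by FOXO factors, of which 40 were in the table. In the pooled fulvestrant comparison 9 of them were called higher and 4 lower (32.5% in all, beside 7.71% higher and 7.81% lower over all genes), and their median log2 change was 0.01, the same as over all genes. Trib1, a pseudokinase that scaffolds protein degradation, had a pooled rise of 1.10 (adjusted p = 0.000132). Its means were 302.2 ± 206.7 with vehicle, 283.4 ± 167.1 with E2, 591.6 ± 296.9 with E2 and fulvestrant and 549.2 ± 308.4 with fulvestrant (SD, n = 3 each). Pdk4, a kinase that inhibits the pyruvate dehydrogenase complex, rose by 0.83 (adjusted p = 4.54e-06), and Ccnd1, cyclin D1, which FOXO factors are known to repress, by 0.60 (adjusted p = 0.00389). Sesn3, a stress-induced sestrin, fell by 0.83 in the pooled comparison (adjusted p = 1.65e-05), with means of 1870 ± 539.2 with vehicle, 2011 ± 367.9 with E2, 1076 ± 153.5 with E2 and fulvestrant and 1094 ± 307.5 with fulvestrant. Nmnat2, an enzyme of NAD synthesis, fell by 0.61 (adjusted p = 0.0019). Fulvestrant added to E2 gave 6 higher and 2 lower of the 40 (beside 4.97% higher and 4.62% lower over all genes), and fulvestrant against vehicle 9 higher and 3 lower (30.0%, beside 6.76% and 5.69%). Without the block 2 were called higher and 1 lower in the pooled comparison.

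Of the 30 genes of the PI3K, AKT and SGK pathway, which control where FOXO proteins reside, 28 were in the table, and the pooled comparison called 2 higher and 3 lower (median 0.04). That was 17.9% of them, near the share over all genes (7.71% higher and 7.81% lower), so the count is no result about the pathway, and the called genes are given as single values. Sgk1, a kinase that phosphorylates FOXO3, rose by 0.85 (adjusted p = 3.97e-05), and Pik3cd, a catalytic PI3K subunit, by 0.44 (adjusted p = 0.0328). Irs1, an adaptor of the insulin receptor, fell by 0.48 (adjusted p = 0.000157), and the regulatory subunits Pik3r3 and Pik3r1 fell by 0.33 and 0.27 (adjusted p = 0.0207 and 0.0103). Akt1 and Akt2, kinases that phosphorylate FOXO proteins, were not called, at -0.06 and -0.11. Without the block 0 genes of this list were called. Of 30 genes for proteins that modify FOXO, 28 were in the table, with 3 called higher and 0 lower (10.7%, beside 7.71% and 7.81% over all genes, median 0.07), again 0 without the block. That count, too, is no result about the list. They were Mdm2, a ubiquitin ligase (0.33, adjusted p = 0.00381), Prkaa2, an AMPK catalytic subunit (0.33, adjusted p = 0.00479), and Ywhag, a 14-3-3 protein (0.27, adjusted p = 0.00387).

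Among 26 partners and corepressors of FOXP proteins, 23 were in the table, with 1 called higher and 1 lower (8.7%, beside 7.71% and 7.81% over all genes, median 0.02), again no result about the list. Chd3, a remodelling ATPase of the NuRD complex, fell by 0.75 (adjusted p = 1.29e-06), from 4759 ± 708.8 with vehicle and 5366 ± 896.0 with E2 to 2884 ± 452.5 with fulvestrant and 3141 ± 710.7 with E2 and fulvestrant. Nfatc1, a calcium-regulated factor that binds DNA with FOXP proteins, rose by 0.53 (adjusted p = 6.74e-05). Ctbp1 and Ctbp2 were not called, at 0.07 and 0.18. Of 8 reported FOXP2 target genes 6 were in the table, with 1 called higher and 2 lower (50.0%, beside the same shares over all genes, on only 6 genes). Plaur, the urokinase receptor, rose by 0.98 (adjusted p = 0.00409), while Srpx2, a ligand of that receptor, fell by 0.73 (adjusted p = 0.000204) and Mef2c, a muscle and neuronal transcription factor, by 0.55 (adjusted p = 0.00215). Met, at -0.20, was not called. Without the block 1 gene was called lower in each of these lists, and 0 higher.

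Since Sgk1 and Pdk4 also respond to glucocorticoids, a list of 15 such genes was described beside the FOXO targets. It had been drawn up with values of these samples already seen, and its direction is therefore no independent evidence. All 13 of its listed genes were called higher and 0 lower in the pooled comparison (median 0.85, beside 7.71% higher and 7.81% lower over all genes), and 5 higher without the block. Fkbp5, a chaperone of steroid receptors, rose by 3.08 (adjusted p = 0.000239), Errfi1 by 1.53, Dusp1 by 1.36 and Mt2 by 1.31, and Cebpd was called as well. No gene of any list was called for E2 against vehicle, for E2 in the presence of fulvestrant or for the interaction.

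**Figure D5:**
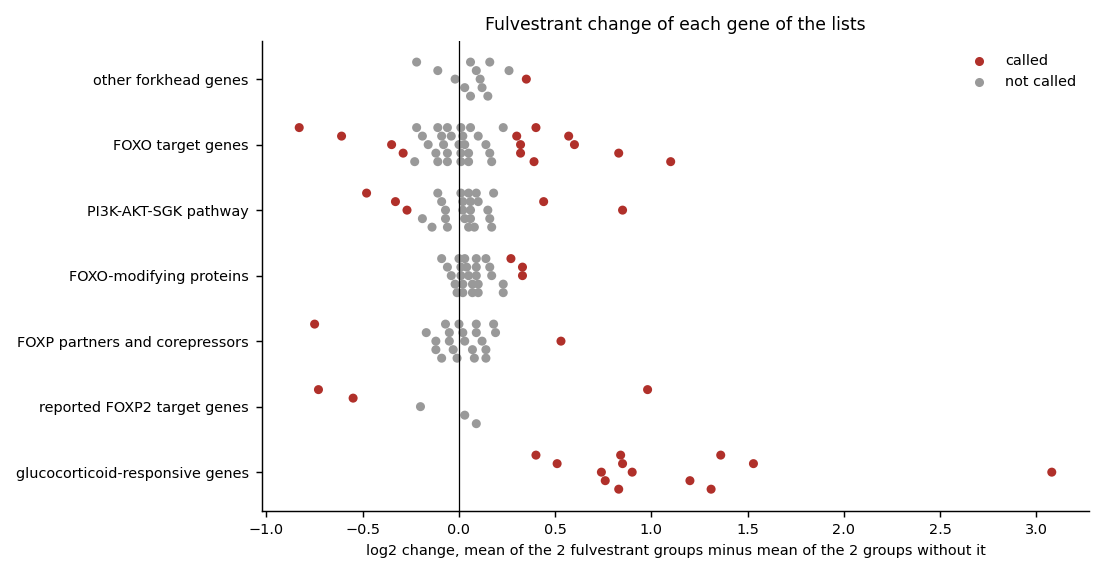
Pooled log2 change with fulvestrant (horizontal axis) of every gene of each list that was in the table, with called genes in red and the others in grey (vertical offsets only separate points). FOXO targets lie on both sides of 0, whereas the 13 glucocorticoid-responsive genes all lie above it.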

How the data were processed

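RNA-Seq of primary HAFs was analyzed in 12 samples, 4 groups of 3 taken from the submitters' labels. The authors trimmed reads with Trimmomatic 0.39, aligned them to mm10 with STAR 2.5.2, counted them by gene and strand with HTSeq 0.13.5, removed low counts, and scaled the libraries with DESeq2 1.37 (median of ratios). Their text also names batch adjustment. The deposited signal per gene and sample is a normalized count. Each value was a whole number of reads (tolerance 0.01) once multiplied by 1 factor per sample, and the lowest was 10 reads. Depth was 18827792 to 44040507 reads on listed genes, so precision is lowest for Foxp2.

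Symbols, positions and exon lengths came from GENCODE M21 (13149 of 13233 identifiers had a symbol). From the deposited values, log2(normalized count + 1) was fitted with limma 3.58.1 in R 4.3.3 (eBayes with a variance trend, two-sided) on all 12 samples with terms for group and replicate number. The Benjamini-Hochberg adjustment covered the 13233 genes, and genes were called at an adjusted p under 0.05 and a fold change over 1.2. Intervals are 95% intervals of that fit. The replicate number was used as a block because samples with the same number deviated from their group means together (r = 0.631 to 0.923 across genes over 18 pairs), whereas replicate 1 opposed replicates 2 and 3 (r = -0.862 to -0.706). Replicates 2 and 3 also deviated together across groups (r = 0.632 to 0.792 over 12 pairs). These values show that replicate 1 stood apart and cannot decide whether replicates 2 and 3 are paired by number. The pairing comes from the numbers in the labels.

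The members and lists were chosen with earlier results of these data known. The text names the 6 members, up to 3 genes most like each, Esr1 and Pgr, and from each list up to 5 called genes with the largest pooled change, with any called for E2 or the interaction. Foxn2, Foxn3, Akt1, Akt2, Ctbp1, Ctbp2, Met, S100b and Foxs1 were named after their values were seen. The fit was tested on simulated data. Python 3.11.15, pandas 2.3.3, numpy 2.4.6, scipy 1.17.1 and matplotlib 3.10.9 were used. Other assays of the study were not analysed here. Some genes that the naming rule selects, and some sequences, are not reported here.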

Additional observations from a re-analysis of the deposited data

How the results depend on the processing

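The fulvestrant change of Foxp2 kept its direction under every alternative that retained it. Leaving out replicates gave log2 changes of -2.09 to -1.52 with fulvestrant added to E2 (adjusted p 0.00175 to 0.0622), -2.15 to -1.72 without E2 (0.00113 to 0.0474) and -2.12 to -1.64 pooled (8.9e-05 to 0.00719). The number of members called with fulvestrant added to E2 was thus 0 to 1, with 0 without replicate 2. Other settings gave -1.80 to -1.32, -1.92 to -1.47 and -1.85 to -1.39, the smallest with a pseudocount of 10. In the 12-sample fit without the replicate block the Foxp2 call was kept (adjusted p = 0.0484, 0.0361 and 0.00257). With only the 6 samples of the compared groups and no block, 0 members were called in either fulvestrant comparison (Foxp2 adjusted p = 0.27 and 0.325). A minimum mean of 100 normalized counts removes Foxp2, which left 0 members called there and in the pooled comparison.

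Genes called over the table moved more. With fulvestrant added to E2, 1270 became 69 without the block, 8 in the 6 samples without it and 316 to 1611 without single replicates or replicate numbers. With fulvestrant against vehicle, 1648 became 72, 0 and 399 to 2312, and 692 in the 6 samples with the block. With E2 against vehicle, 10 became 1, 0 and 0 to 59, as well as 57 in the 6 samples with the block and 3 without a variance trend. The pooled 2054 became 310 without the block, 1335 to 2332 without replicates and 3752 by adjusted p alone. Leaving out replicates gave 0 to 4 for E2 in the presence of fulvestrant and 0 to 11 for the interaction. With replicate 1 left out, an alternative added after seeing the data, the lists had 9 higher and 5 lower (FOXO targets), 2 and 2 (PI3K, AKT and SGK), 3 and 0 (FOXO-modifying), 1 and 2 (FOXP partners), 1 and 2 (FOXP2 targets), 13 and 0 (glucocorticoid-responsive) and 2 and 0 (other forkheads).

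Of the uncalled values, some crossed 0 when a replicate was left out. With fulvestrant added to E2 these were Foxp4 (-0.13 to 0.01) and Foxo4 (-0.10 to 0.05). With fulvestrant against vehicle they were Foxp1 (-0.10 to 0.13), Foxo1 (-0.16 to 0.13) and Foxo3 (-0.02 to 0.14). With E2 against vehicle they were Foxp1 (-0.11 to 0.04), Foxp4 (-0.08 to 0.02), Foxo1 (-0.07 to 0.12) and Foxo3 (-0.05 to 0.07). For E2 in the presence of fulvestrant they were Foxp1 (-0.07 to 0.12), Foxp4 (-0.02 to 0.12) and Foxo4 (-0.12 to 0.09). The pooled values were Foxp1 (-0.02 to 0.09) and Foxo1 (-0.05 to 0.14), and those of the interaction Foxp1 (-0.07 to 0.16), Foxp2 (-0.17 to 0.36), Foxo1 (0.00 to 0.25) and Foxo4 (-0.08 to 0.15). Rescaling to CPM gave -0.02 for Foxo1 with fulvestrant against vehicle and, with E2 against vehicle, 0.00 for Foxo1 and -0.02 for Foxo3, for which quantile normalization gave -0.02. Quantile normalization gave 0.00 for the pooled Foxp1. The pooled Foxp4 had an adjusted p of 0.028 by quantile normalization and 0.0434 in CPM, with a fold under 1.2. The causes were not tested. Without subtraction of the replicate means, 2 of the 3 genes most like Foxp2 and 1 of 3 for each other member were kept. The planned edgeR and DESeq2 fits were not run on the normalized values. Depth limits Foxp2 most, with 12 to 17 reads per sample with fulvestrant.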
